A study of Mus musculus with 25 samples.

Results

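The levels of 10 immediate early and AP-1 genes were examined by RNA sequencing of HSLAM cells, the LSK+ CD150+ CD48- fraction, a sorted bone marrow population rich in hematopoietic stem cells. The genes were taken as a list by symbol, and 10 of 10 (*Fos*, *Fosb*, *Jun*, *Junb*, *Jund*, *Egr1*, *Ier2*, *Atf3*, *Dusp1* and *Nr4a1*) were found among the 23116 genes of the deposited expression table. The control libraries came from 3 *Znf143 f/f* x *Rosa26ERT2-Cre-* mice (*Znf143 f/f*) and the deleted libraries from 3 *Znf143 f/f* x *Rosa26ERT2-Cre*+ mice (*Znf143 -/-*). Both genotypes carried the floxed allele, with loxP sites on either side of exon 1, on a C57BL/6 background, and both received tamoxifen, given over 10 days. The animals were male, 8 to 12 weeks old, and described as 3 pairs of littermates. The labels do not state which libraries make a pair. The Cre is driven from the *Rosa26* locus, which is active in most tissues, so deletion need not have been limited to the sorted cells, and only the deleted animals carried the Cre. The labels of the samples name the deleted genotype a CTCF knockout, whereas the study describes the deletion of *Znf143*.

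Immediate early genes are switched on within minutes of a stimulus, without new protein being made, and their mRNAs are short-lived. FOS and JUN family proteins pair to form AP-1, a transcription factor of the basic leucine zipper class that binds target genes of growth, stress and differentiation signals. Many of these genes are also known to respond to tissue dissociation, temperature and time before lysis, so their level in sorted cells can reflect the preparation as well as the animal. In these mice the bones were crushed in ice-cold PBS, red cells were lysed, lineage-positive cells were depleted on magnetic columns, and the cells were stained, sorted, checked by a second sort run and spun down before lysis in Trizol. The time that each animal's cells spent in these steps is not given in the sources used here. The 6 libraries were sequenced in 1 pool.

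Levels are given as scaled FPKM, which are fragments per kilobase of gene length, relative to the depth of the library and after 1 scaling factor for each library, so that levels of different genes can be set side by side. Fragments on genes ranged from 38643255 to 57895793 per library. Each of the 10 genes had at least 279 fragments in every library and up to 172965. The lowest counts were those of *Atf3* (279 to 665), whose counting error was not small beside the spread of its *Znf143 f/f* values. For the other genes of the list, with at least 2337 fragments, counting error was small beside the spread between libraries. *Zfp143*, the mouse symbol of *Znf143*, was at 3.09, 4.45 and 3.68 scaled FPKM in the *Znf143 f/f* libraries and at 0.156, 0.299 and 0.272 in the *Znf143 -/-* libraries (log2 fold change -3.50, SE 0.239, limma adjusted p = 0.00100, and -3.66 with an adjusted p of 0.0322 when the near-identical libraries described next are averaged). *Ctcf* was at 30.3 to 32.7 and 26.7 to 31.9 scaled FPKM (limma adjusted p = 0.468), so the libraries follow the genotype of the study and not the wording of the labels. The stem cell markers *Procr* (43.2 to 49.7 scaled FPKM over the 6 libraries) and *Slamf1* (5.16 to 9.07), which encodes CD150, were present in every library. Of 8 stem cell markers, 6 were lower and 2 higher in *Znf143 -/-* by their log2 fold change. Called by limma were 2 of the 8, beside 5.98% of all genes. These were *Ly6a* (Sca-1), higher (1.13, limma adjusted p = 0.00453), and *Mecom*, lower (-0.55, limma adjusted p = 0.0208). With the near-identical libraries averaged, 0 of the 8 were called (3 at an unadjusted p under 0.05), beside 0.243% of all genes.

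The 3 libraries of a genotype were not equally far apart. *Znf143 f/f* 1 and 3 differed by 2.77 times the sampling noise of their fragments (median chi-square over genes), and *Znf143 -/-* 2 and 3 by 3.02 times, whereas the other 13 pairs of libraries, within and between genotypes, differed by 22.8 to 42.0 times. Within these near-identical pairs, no gene of the 10 differed by more than 1.15-fold and 1.19-fold, respectively. The likeness exceeded what the other pairs of one genotype showed but did not reach sampling noise, so the libraries were kept as 3 against 3, and each result is also given with the near-identical libraries averaged (2 against 2, chosen after seeing the data). If the libraries of a pair come from 1 animal or 1 preparation, the p-values of the 3 against 3 comparison are too small. The source of the likeness was not tested.

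**Figure D1:**
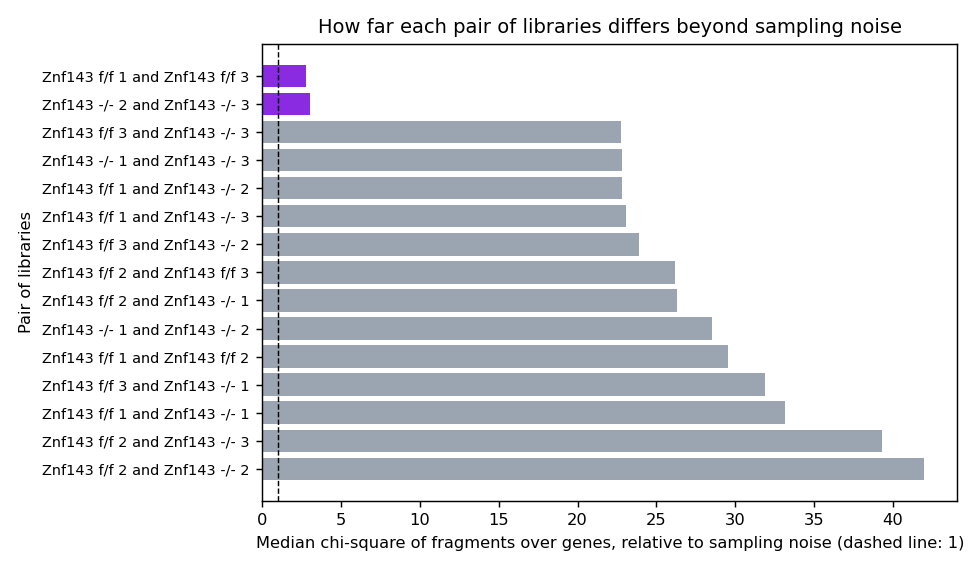
Each bar is 1 pair of the 6 HSLAM libraries, and its length is the median chi-square of the fragments over genes relative to sampling noise, which is 1 at the dashed line. The pairs *Znf143 f/f* 1 and 3 (2.77) and *Znf143 -/-* 2 and 3 (3.02) stand apart from the other 13 pairs (22.8 to 42.0).

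RefSeq start sites on GRCm38.p6 were used for 8 of the 10 genes. *Ier2* and *Egr1* were left out of the sequence search, so the motif results below do not cover these genes. The 250 bases before the start site are shown for *Fos*, the most abundant of the 10 genes, for *Dusp1*, the gene with the largest log2 difference between genotypes, and for *Jun*, the gene with the smallest p between genotypes. The *Fos* sequence is from chr12:85473640-85473889 (plus strand), with the TATA box letters TATAAA (-33 to -28 from the start site) in capitals. The *Dusp1* sequence is from chr17:26508473-26508722 (minus strand), with the cAMP response element letters TGACGTCA (-143 to -136) in capitals. The *Jun* sequence is from chr4:95052223-95052472 (minus strand), with a match to the ZNF143 core letters CCCANNATG on the opposite strand (-42 to -34) in capitals.
Fos: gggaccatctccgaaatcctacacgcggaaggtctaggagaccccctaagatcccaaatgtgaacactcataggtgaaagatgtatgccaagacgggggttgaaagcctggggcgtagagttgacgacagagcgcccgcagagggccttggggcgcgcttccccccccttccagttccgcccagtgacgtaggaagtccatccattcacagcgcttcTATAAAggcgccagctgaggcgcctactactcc
Dusp1: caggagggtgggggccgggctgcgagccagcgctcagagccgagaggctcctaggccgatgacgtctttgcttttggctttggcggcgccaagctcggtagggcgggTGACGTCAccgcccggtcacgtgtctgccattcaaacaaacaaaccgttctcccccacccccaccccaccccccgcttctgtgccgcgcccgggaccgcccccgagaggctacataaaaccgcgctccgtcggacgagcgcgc
Jun: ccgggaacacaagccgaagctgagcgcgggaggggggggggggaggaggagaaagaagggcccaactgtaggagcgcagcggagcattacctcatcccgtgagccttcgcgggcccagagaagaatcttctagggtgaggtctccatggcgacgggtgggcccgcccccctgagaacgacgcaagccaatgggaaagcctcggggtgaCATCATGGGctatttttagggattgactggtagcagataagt

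Both strands of the windows of 300 bases, from 250 before to 50 after the start site, were searched for letters of 6 motifs. TATAAA was found for *Fos*, for *Junb* (1 to 6 after the start site) and in 13.6% of the 32851 windows of all genes, TGACGTCA for *Dusp1* and in 1.79%, and the ZNF143 core CCCANNATG for *Jun* and in 5.01%. The EGR site GCGNGGGCG was found for *Fosb* and *Nr4a1* and in 5.55% of all windows. The AP-1 site TGACTCA (5.20% of all windows) and the CArG box bound by serum response factor (1.63%) were found in none of the 8 windows. Only these letters within these windows were searched, so other forms of a site and sites farther upstream were not looked for. The *Jun* window, for example, holds TGACATCA, a near match to TGACGTCA that overlaps the ZNF143 core match. Within the 8 windows no counted match of one motif overlapped a counted match of another. The RefSeq window used for *Jund* ends at chr8:70697788, before the GENCODE start of the gene at 70698949. A match of letters is a description of the window and was not tied to binding here. The study's list of genes with strong ZNF143 association holds 1 of the 10 genes, *Jun*, beside 1383 of the 23116 genes by symbol.

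Between genotypes, none of the 10 genes passed the test. In *Znf143 -/-* HSLAM cells the mean log2 level was below that of *Znf143 f/f* for 8 genes and above it for 2, with log2 fold changes from -0.52 (*Dusp1*) to 0.32 (*Atf3*) and a median of -0.27, beside a median of 0.01 over all 19293 genes tested. The number called was 0 of 10 at a limma adjusted p under 0.05 over all genes tested, where 5.98% of all genes were called and 2.99% were called lower. At an unadjusted p under 0.05, 1 of 10 was counted (*Jun*), and voom on the recovered fragments called 1 of 10 (*Jun*, adjusted p = 0.0393) beside 7.26% of all genes. With the near-identical libraries averaged, 0 of 10 were called by limma (0 of 10 also at an unadjusted p under 0.05) beside 0.243% of all genes, adjusted p ranged from 0.602 to 0.979, and 6 genes were lower and 4 higher. In *Jun* and *Nr4a1*, 2 of 10, no value of one genotype fell within the range of the other, beside 30.7% of all genes. With 3 against 3 libraries the exact permutation test cannot go below p = 0.1.

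**Figure D2:**
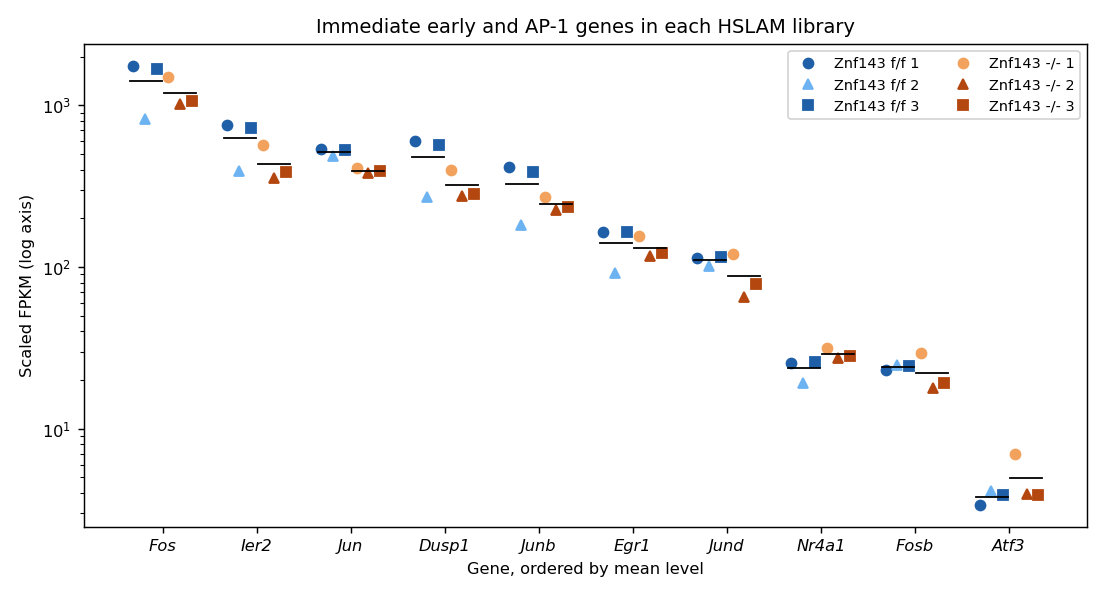
Each point is the scaled FPKM (log axis) of 1 gene in 1 HSLAM library, with *Znf143 f/f* in blue and *Znf143 -/-* in orange, and the short lines are the means of 3 libraries. The pale points are *Znf143 f/f* 2 and *Znf143 -/-* 1, and *Fos* in *Znf143 f/f* 2 (828) lies below all 5 other libraries (1016 to 1752).

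*Fos*, the FOS family member that gives the family its name, was the most abundant of the 10 and ranked 30 of all genes by mean level. It was at 1752, 828 and 1673 scaled FPKM in *Znf143 f/f* and at 1502, 1016 and 1070 in *Znf143 -/-*. The second *Znf143 f/f* library was the lowest of the 6 and the other two were the highest, so the *Znf143 -/-* libraries lay between libraries of one control genotype. The difference between genotypes (log2 fold change -0.19, SE 0.328, limma adjusted p = 0.771) was smaller than its error, and it turned to 0.07 (SE 0.440) with the near-identical libraries averaged.

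*Fosb*, a FOS family member that accumulates on repeated stimulation, lay far below *Fos*. It was at 23.0, 24.9 and 24.3 scaled FPKM in *Znf143 f/f* and at 29.4, 17.8 and 19.2 in *Znf143 -/-*. The first *Znf143 -/-* library was the highest of the 6 and the other two of that genotype the lowest. On the log2 scale the difference was -0.15 (SE 0.189, limma adjusted p = 0.669). The gene lies at chr7:19302696-19310051 on GRCm38 (GENCODE).

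*Jun*, the JUN family member that pairs with FOS in the classical AP-1 dimer and is a gene of 1 exon (chr4:95049034-95052222), showed little spread within each genotype. It was at 534, 486 and 531 scaled FPKM in *Znf143 f/f* and at 407, 379 and 392 in *Znf143 -/-*. All 3 *Znf143 -/-* libraries were lower than all 3 *Znf143 f/f* libraries, with 517 ± 26.8 against 393 ± 13.9 scaled FPKM (SD, n = 3 each; exact permutation p = 0.1, two-sided). The log2 fold change was -0.40 (SE 0.102, 95% interval -0.64 to -0.15), with a limma adjusted p of 0.0725, above the threshold of 0.05. With the near-identical libraries averaged it was -0.36 (SE 0.216, limma adjusted p = 0.680). Over all alternatives run, the log2 fold change of *Jun* stayed between -0.44 and -0.28, and its limma or voom adjusted p ran from 0.0393 to 0.680.

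*Junb*, a JUN family member known as a brake on the proliferation of hematopoietic stem and myeloid cells, was at 416, 182 and 385 scaled FPKM in *Znf143 f/f* and at 272, 226 and 234 in *Znf143 -/-*. As with *Fos*, the second *Znf143 f/f* library was the lowest of the 6. The log2 fold change was -0.34 (SE 0.313, limma adjusted p = 0.560) with all libraries and -0.72 (SE 0.119, limma adjusted p = 0.0256) without *Znf143 f/f* 2. The gene lies at chr8:84974484-84978718.

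*Jund*, the JUN family member that most resting cells express, is a gene of 1 exon at chr8:70698949-70700616. It was at 114, 101 and 116 scaled FPKM in *Znf143 f/f* and at 120, 65.5 and 78.3 in *Znf143 -/-*. The *Znf143 f/f* libraries lay close together, and the first *Znf143 -/-* library was above all of them while the other two were below. Between genotypes the difference was -0.37 on the log2 scale (SE 0.217, limma adjusted p = 0.347), and without *Znf143 -/-* 1 it was -0.62 (limma adjusted p = 0.0315).

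*Egr1*, a zinc finger transcription factor that is known to hold hematopoietic stem cells in quiescence and in their niche, was at 166, 92.1 and 165 scaled FPKM in *Znf143 f/f* and at 156, 116 and 122 in *Znf143 -/-*. Its mean differed least between genotypes among the 10 genes on the log2 scale (-0.06, SE 0.251, limma adjusted p = 0.912), and the sign turned under 5 of 16 alternatives, of which averaging the near-identical libraries gave the highest value (0.14).

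*Ier2*, a nuclear immediate early protein encoded by 1 exon at chr8:84661331-84662852, was the second most abundant of the list. It was at 757, 394 and 723 scaled FPKM in *Znf143 f/f* and at 565, 356 and 388 in *Znf143 -/-*. Again *Znf143 f/f* 2 was close to the lower pair of *Znf143 -/-* libraries, and *Znf143 -/-* 1 lay between these levels. Between genotypes the log2 fold change was -0.49 (SE 0.299, limma adjusted p = 0.375).

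*Atf3*, a stress-induced factor of the ATF family that also binds AP-1 partners, was the least abundant of the 10 (chr1:191170296-191218039). It was at 3.38, 4.10 and 3.91 scaled FPKM in *Znf143 f/f* and at 6.99, 3.97 and 3.89 in *Znf143 -/-*. *Znf143 -/-* 1 stood above the other 5 libraries, which lay close together. The log2 fold change was 0.32 (SE 0.238, limma adjusted p = 0.457), and 0.05 without *Znf143 -/-* 1.

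*Dusp1*, a phosphatase that switches off the MAP kinases upstream of these genes, had the largest difference between genotypes of the 10 on the log2 scale. It was at 599, 272 and 570 scaled FPKM in *Znf143 f/f* and at 400, 277 and 284 in *Znf143 -/-*. *Znf143 f/f* 2 was below all 3 *Znf143 -/-* libraries. The log2 fold change was -0.52 (SE 0.327, limma adjusted p = 0.384), and it was -0.89 (SE 0.189, limma adjusted p = 0.0442) without *Znf143 f/f* 2 and -0.25 (SE 0.407, limma adjusted p = 0.900) with the near-identical libraries averaged.

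*Nr4a1*, an orphan nuclear receptor that is linked to stem cell quiescence (chr15:101254269-101274795), was at 25.5, 19.3 and 26.0 scaled FPKM in *Znf143 f/f* and at 31.4, 27.6 and 28.0 in *Znf143 -/-*. All *Znf143 -/-* libraries were above all *Znf143 f/f* libraries (exact permutation p = 0.1, two-sided, n = 3 each). On the log2 scale *Nr4a1* differed by 0.31 (SE 0.135, limma adjusted p = 0.223), and with the near-identical libraries averaged it was 0.41 (limma adjusted p = 0.602).

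Averaging the near-identical libraries gave log2 fold changes of -0.05 for *Fosb*, -0.11 for *Junb*, -0.22 for *Jund*, -0.23 for *Ier2* and 0.43 for *Atf3*, with limma adjusted p from 0.743 to 0.969. The 95% interval of the *Dusp1* difference with all libraries (-1.30 to 0.26) holds both no change and a fall by more than 1 log2 unit.

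The library kit does not mark the strand. Exons of *Junos*, *Prdx2*, *Gm11175* and *Ergic1* lie opposite exons of *Jun*, *Junb*, *Jund* and *Dusp1*, respectively, so fragments in these stretches cannot be told apart between the strands. The listed lengths equal those of the merged GENCODE exons for 8 of the 10 genes, the exceptions being *Dusp1* and *Nr4a1*.

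**Figure D3:**
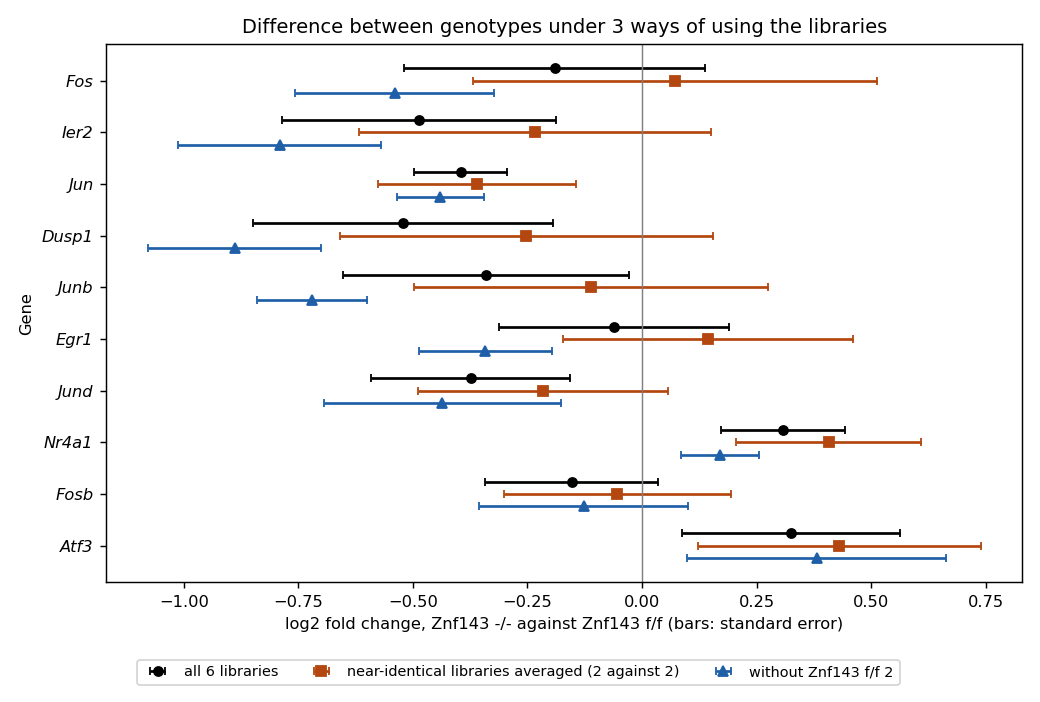
The log2 fold change of each gene (*Znf143 -/-* against *Znf143 f/f*, bars are the standard error of the limma fit) is shown with all 6 libraries, with the near-identical libraries averaged, and without *Znf143 f/f* 2. *Dusp1* moves from -0.52 to -0.25 and -0.89, whereas *Jun* stays at -0.40, -0.36 and -0.44.

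The spread within a genotype followed single libraries for most of the list. *Znf143 f/f* 2 was the lowest *Znf143 f/f* library in 8 of 10 genes (46.7% of the 12546 genes with a mean of at least 1 scaled FPKM), the exceptions being *Fosb* and *Atf3*. *Znf143 -/-* 1 was the highest *Znf143 -/-* library in 10 of 10 genes (42.7% of the same genes). The *Znf143 f/f* libraries spanned at least 1 log2 unit in 3 of 10 genes (*Fos*, *Junb* and *Dusp1*), beside 6.78% of all genes of this level. The median span over the 10 genes was 0.64 log2 units in *Znf143 f/f* and 0.55 in *Znf143 -/-*, beside 0.30 and 0.31 over all genes. The members share libraries, so these counts describe 6 libraries and not 10 separate observations.

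The genes divided by which library set them apart. In *Fos*, *Junb*, *Egr1*, *Ier2* and *Dusp1*, the highest *Znf143 f/f* library was 1.80-fold (*Egr1*) to 2.29-fold (*Junb*) above the lowest, which was *Znf143 f/f* 2 each time. In *Fosb*, *Jun*, *Jund* and *Atf3* the same span was 1.08-fold to 1.21-fold, and in *Nr4a1* it was 1.35-fold. Among the *Znf143 -/-* libraries, *Jund*, *Atf3* and *Fosb* had the widest spans (1.82-fold, 1.78-fold and 1.65-fold) and *Jun* the narrowest (1.07-fold). *Jun* spanned at most 1.10-fold in either genotype. Summed over the 10 genes, the level was 4389, 2403 and 4218 scaled FPKM in *Znf143 f/f* and 3489, 2485 and 2619 in *Znf143 -/-*. The 10 genes took 1.06%, 0.548% and 1.02% of the fragments in *Znf143 f/f* and 0.796%, 0.629% and 0.656% in *Znf143 -/-*.

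**Figure D4:**
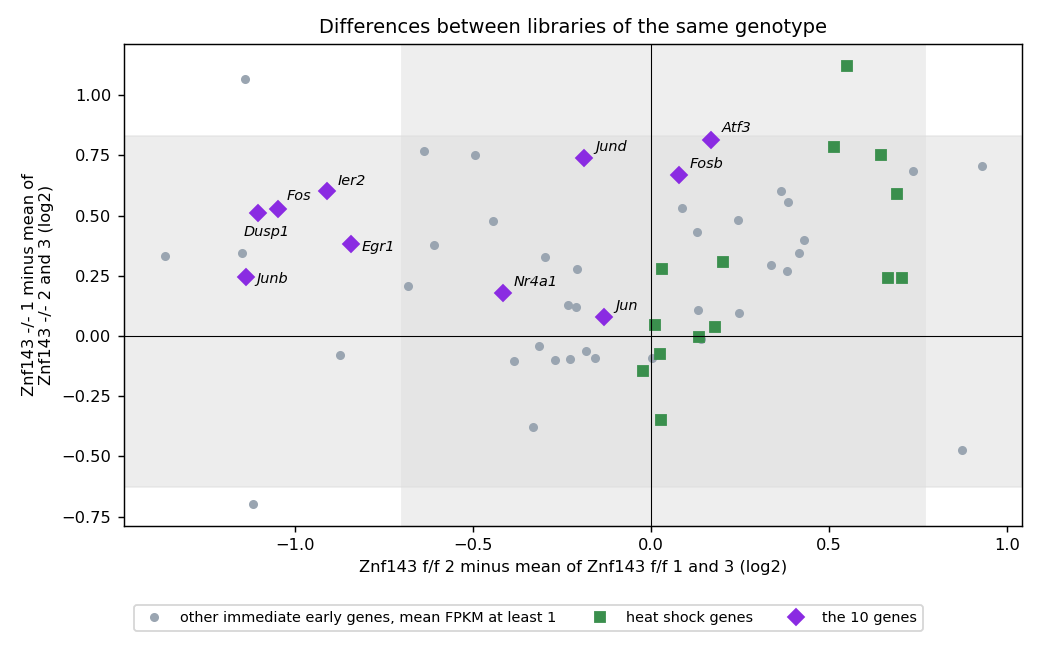
Each point is 1 gene, with the log2 difference of *Znf143 f/f* 2 from the mean of *Znf143 f/f* 1 and 3 on the x axis and that of *Znf143 -/-* 1 from the mean of *Znf143 -/-* 2 and 3 on the y axis, and the grey bands hold the 5th to 95th percentile of all 12546 genes with a mean of at least 1 scaled FPKM. *Junb* (-1.14), *Dusp1* (-1.10), *Fos* (-1.05), *Ier2* (-0.91) and *Egr1* (-0.84) lie to the left of the band, and the 14 heat shock genes lie between -0.02 and 0.70.

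The genotype difference depended on which libraries were used. Without *Znf143 f/f* 2, 3 of 10 genes were called, all lower in *Znf143 -/-* (*Jun*, *Junb* and *Dusp1*), beside 11.9% of all genes. Without *Znf143 -/-* 1, 3 of 10 were called, all lower (*Fosb*, *Jun* and *Jund*, with limma adjusted p of 0.0370, 0.0474 and 0.0315), beside 11.0% of all genes. In each of these fits 1 genotype is left with only its near-identical pair, whose small spread enters the error. *Jun* was called in both, with log2 fold changes of -0.44 and -0.42.

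Other genes of the same response were read from lists. Of 8 other AP-1 subunits, 1 was called at a limma adjusted p under 0.05, beside 5.98% of all genes. *Jdp2*, a repressor that dimerizes with JUN proteins, fell from 15.1, 11.6 and 12.7 to 6.94, 8.57 and 8.66 scaled FPKM (log2 fold change -0.70, limma adjusted p = 0.0373, and 0.308 with the near-identical libraries averaged). *Batf*, an AP-1 factor of lymphoid and stem cell differentiation, was the most abundant of the 8 (58.9 to 67.0 in *Znf143 f/f* and 61.5 to 69.9 in *Znf143 -/-*, limma adjusted p = 0.774), and *Batf2* was at 6.08 to 6.98 and 4.59 to 4.85 scaled FPKM (limma adjusted p = 0.0581). The median log2 fold change of the 8 genes was -0.10.

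Of 43 other immediate early genes listed, 42 were tested (*Ctgf* was not among the symbols of the table), with a median log2 fold change of 0.08. By limma 3 were called higher and 1 lower (9.52% of the list), beside 5.98% of all genes called. *Gadd45g*, a growth arrest and stress gene, rose from 25.1, 18.1 and 26.0 to 96.1, 53.3 and 61.1 scaled FPKM (log2 fold change 1.57, limma adjusted p = 0.0181). *Pim1*, a kinase gene induced by cytokines through STAT factors, rose from 30.1, 56.7 and 31.8 to 76.2, 110 and 102 (1.32, limma adjusted p = 0.0392). In both genes every *Znf143 -/-* library was above every *Znf143 f/f* library. *Sgk1*, a serum-induced kinase gene, rose from 2.36 to 2.82 in *Znf143 f/f* to 3.84 to 4.21 in *Znf143 -/-* (0.59, limma adjusted p = 0.0391), and *Ier5*, an immediate early gene of the heat shock response, fell from 18.4 to 22.1 to 13.7 to 15.2 (-0.51, limma adjusted p = 0.0355). With the near-identical libraries averaged, none of the 42 was called (7 had an unadjusted p under 0.05), beside 0.243% of all genes. For *Gadd45g*, *Pim1*, *Sgk1* and *Ier5* the limma adjusted p were 0.117, 0.330, 0.412 and 0.476.

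The 3 most abundant genes of that list differed in their library pattern. *Zfp36*, whose protein degrades AU-rich mRNAs, was at 267, 117 and 250 scaled FPKM in *Znf143 f/f* and at 181, 140 and 145 in *Znf143 -/-*, lowest in *Znf143 f/f* 2 as *Fos* was. *Klf2*, a quiescence factor, was at 255, 112 and 240 and at 314, 139 and 161, so that both *Znf143 f/f* 2 and *Znf143 -/-* 1 set it apart. *Dusp2*, a phosphatase of MAP kinases, was at 158, 134 and 155 and at 120, 129 and 127, so that *Znf143 -/-* 1 was the lowest of its genotype. Of the 37 genes of the list with a mean of at least 1 scaled FPKM, 21 (56.8%) were lowest and 15 (40.5%) highest in *Znf143 f/f* 2 among the *Znf143 f/f* libraries. Over all genes of this level these shares were 46.7% and 43.3%. By count, the list was therefore divided in that library. Its summed level was lowest there, at 1809, 1352 and 1768 scaled FPKM in *Znf143 f/f*. Among the *Znf143 -/-* libraries, *Znf143 -/-* 1 was highest in 25 of the 37 genes (67.6%) and lowest in 10. The same library was highest in 42.7% and lowest in 49.2% of all genes of this level. A span of at least 1 log2 unit among the *Znf143 f/f* libraries was found in 5 of the 37, which are *Klf2*, *Zfp36*, *Socs3*, *Arc* and *Gadd45a* (the last 3 named after their values were seen). *Gadd45a* went the other way, with 5.18, 10.7 and 5.95 scaled FPKM.

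None of 26 upstream kinases and transcription factors, among them the MAP kinases and serum response factor, was called, beside 5.98% of all genes. None of the 26 spanned 1 log2 unit among the *Znf143 f/f* libraries, beside 6.78% of genes with a mean of at least 1 scaled FPKM. The lowest limma adjusted p of the 26 was 0.0528, 4 had an unadjusted p under 0.05, and voom called 1. *Rps6ka1* (RSK1) was at 34.0 to 41.5 scaled FPKM in *Znf143 f/f* and 35.4 to 42.6 in *Znf143 -/-*, and *Mapkapk2* (MK2) at 32.7 to 39.2 and 37.8 to 51.2. These are mRNA levels, and the activity of the kinases was not measured.

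Heat shock genes, a second group known to respond to handling and temperature, differed from the 10 genes in *Znf143 f/f* 2. That library was the highest *Znf143 f/f* library in 12 of 14 heat shock genes and the lowest in 0, beside 43.3% and 46.7% of all genes. Its difference from the mean of *Znf143 f/f* 1 and 3 was between -0.02 and 0.70 log2 units in the 14 genes. All 14 lay within the 5th to 95th percentile of genes with a mean of at least 1 scaled FPKM (-0.70 to 0.77). *Hsp90aa1*, the inducible HSP90 gene, was at 316, 524 and 345 scaled FPKM in *Znf143 f/f* and at 466, 388 and 402 in *Znf143 -/-*, and *Hspe1*, a mitochondrial chaperonin gene, was at 220, 369 and 253 and at 366, 205 and 230. *Hsp90ab1*, the constitutive HSP90 gene, was nearly level within each genotype, at 688 to 698 in *Znf143 f/f* and 583 to 611 in *Znf143 -/-* (log2 fold change -0.21, limma adjusted p = 0.264). In *Znf143 -/-* 1, both the 10 genes and 10 of the 14 heat shock genes were the highest of their genotype, beside 42.7% of all genes. In *Znf143 f/f* 2, *Fos*, *Junb*, *Egr1*, *Ier2* and *Dusp1* were therefore low, below that percentile range. *Hsp90aa1* (0.66 log2 units) and *Hspe1* (0.65) were higher there than in *Znf143 f/f* 1 and 3, but within the range.

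Between genotypes, 1 of the 14 heat shock genes was called higher and 2 lower by limma, beside 5.98% of all genes called. *Dnajb1*, a co-chaperone gene, rose from 88.6 to 91.2 to 118 to 144 scaled FPKM (log2 fold change 0.50, limma adjusted p = 0.0417). *Hsph1* (HSP110) fell from 12.0 to 14.2 to 5.64 to 7.27 (-1.02, limma adjusted p = 0.00813), and *Hspa8*, the constitutive HSP70 gene, fell from 254 to 260 to 187 to 198 (-0.41, limma adjusted p = 0.0394). With the near-identical libraries averaged, none of the 14 was called (3 had an unadjusted p under 0.05), beside 0.243% of all genes. For *Dnajb1*, *Hsph1* and *Hspa8* the limma adjusted p were then 0.405, 0.168 and 0.533.

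Markers of other cells and of RNA content also moved with the libraries. Fewer cells of a type and less RNA per cell cannot be told apart in these bulk samples. In *Znf143 f/f* 2 the summed level of 6 erythroid markers was 76.7 scaled FPKM, beside 29.3 and 33.8 in the other *Znf143 f/f* libraries and 25.8 to 32.0 in *Znf143 -/-*, with *Hbb-bs* at 48.5. The summed level of 8 neutrophil markers was 42.3 to 80.1 in *Znf143 f/f* and 124 to 153 in *Znf143 -/-*. Of the 8, 5 rose (limma adjusted p under 0.05), beside 5.98% of all genes called. With the near-identical libraries averaged, 0 of the 8 were called (6 at an unadjusted p under 0.05), beside 0.243% of all genes. *Cd48*, which encodes the antigen excluded by the gate, rose from 9.73, 11.1 and 9.61 to 19.7, 20.5 and 19.8 (log2 fold change 0.97, limma adjusted p = 0.00307, and 0.140 averaged). Of the macrophage markers *Lyz2* was at 533 to 570 in *Znf143 f/f* and 417 to 431 in *Znf143 -/-* (limma adjusted p = 0.0729), and *C1qb* was at 0 to 1.06 over all libraries. *Csf1r* was at most 0.0140 in *Znf143 f/f* and at 0.186 to 0.264 in *Znf143 -/-*, with at most 63 fragments in a library. It reached the tested mean of 0.1 only through the *Znf143 -/-* libraries, so no p-value is given for it. The platelet markers summed to 533 to 610 scaled FPKM in *Znf143 f/f* and to 998, 655 and 676 in *Znf143 -/-*, with *Pf4* at 824, 501 and 523 in the latter, and 3 of the 4 were highest and *Ppbp* lowest in *Znf143 -/-* 1. *Cd79b* was at 39.1 to 48.6, whereas *Cd79a* was at most 0.0840, the T cell markers summed to at most 0.983, and the stroma and endothelium markers to at most 4.08. Mitochondrial genes took 2.82% to 3.14% of fragments in *Znf143 f/f* and 1.68% to 2.02% in *Znf143 -/-*. The part of these markers in the levels of the 10 genes was not tested.

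Across the 6 libraries, the genes whose centred log2 level lay closest to the mean profile of the 10 were *Sertad3*, *Kif2a*, *Nipal3*, *Gnal* and *S1pr2*, among 12536 genes compared, with root mean square differences of 0.0333, 0.0505, 0.0531, 0.0592 and 0.0647 log2 units. The mean profile itself was 0.28, -0.27 and 0.28 log2 units in *Znf143 f/f* and 0.22, -0.29 and -0.21 in *Znf143 -/-*. *Sertad3* was at 13.9, 8.80 and 13.5 scaled FPKM in *Znf143 f/f* and at 13.1, 9.11 and 9.83 in *Znf143 -/-*. Of the 10 genes themselves, *Egr1* was the closest to the mean profile (0.120) and *Atf3* the farthest (0.376).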

How the data were processed

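The 6 RNA-seq libraries of the 25 samples of the series were analysed. ChIP-seq and HiC samples were not analysed here. Groups follow the sample labels. RNA with a high integrity score was amplified with the SMART-Seq v4 kit and tagged with Nextera XT. The authors used TrimGalore for trimming, STAR for alignment (GRCm38) and FeatureCounts for counting, and they deposited FPKM for each library. The table also holds the results of their DESeq2 comparison, which were not used.

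FPKM times gene length gave whole fragments (within 0.05) for 138677 of 138696 values (99.986%). The deposited FPKM of the third *Znf143 -/-* library were divided by 48378188, the divisor of the second, although 57895793 fragments lay on its genes. FPKM were therefore scaled by median-of-ratios size factors (0.906 to 1.20). As deposited, the median log2 fold change of all genes was 0.11, against 0.01 after scaling. Genes with a mean of at least 0.1 were tested as log2(FPKM + 0.1) with limma 3.58.1 (R 4.3.3, variance trend, Benjamini-Hochberg over all genes), without a replicate block. Fold changes on this scale understate low genes. The deviations of same-numbered libraries from their genotype means had correlations of -0.17, -0.14 and 0.09. With *Znf143 f/f* 1 and 3 and *Znf143 -/-* 2 and 3 near-identical, these values are not separate. They therefore cannot show whether the replicate numbers follow the pairs of littermates. On simulated data with 3 against 3 libraries (19110 genes), 62 of 100 genes changed 2-fold and 97 of 100 changed 4-fold were called, with 4 false calls. The simulated libraries were independent of each other, shared a single dispersion and held no near-identical pairs. These counts therefore do not give the error rate of the real libraries. P-values set the difference between genotypes against the residual spread of these libraries, which need not be the spread between animals.

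The 10 genes, the lists and the markers were chosen with earlier results of these data known. From each list, the genes called (at most 4 in each direction, mean of at least 1) and the 3 most abundant were named, besides the 5 genes nearest in profile. Values of 2 listed genes are not reported here. Start site sequences are from RefSeq (GRCm38.p6) and gene positions from GENCODE M21. Alternatives changed the scaling, pseudocount (0.01 or 1), filter (none, or a mean of at least 1), variance trend, model (voom), replicate block and libraries used.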

Additional observations from a re-analysis of the deposited data

How the results depend on the processing

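Of 160 values of the 10 genes under 16 alternatives, 146 kept their sign and side of the threshold, 7 passed it and 7 changed sign. The sign changed for *Fos* without *Znf143 f/f* 1 (0.000452) and with the near-identical libraries averaged (0.0716), and for *Egr1* with FPKM as deposited (0.0532), without *Znf143 f/f* 1 (0.0820), without *Znf143 f/f* 3 (0.0779), without *Znf143 -/-* 2 (0.0212) and averaged (0.14). Leaving out 1 library, the log2 fold change ranged from -0.54 to 0.000452 for *Fos* and from -0.34 to 0.0820 for *Egr1*. All genes called numbered 1154, the 10 genes 0, other AP-1 subunits 1, other immediate early genes 4, upstream factors 0 and heat shock genes 3. In the same order, leaving out 1 library gave 223 to 2286, 0 to 3, 0 to 3, 0 to 8, 0 to 1 and 0 to 4, averaging the near-identical libraries 47, 0, 0, 0, 0 and 0, and the replicate block 191, 0, 0, 1, 0 and 0. FPKM as deposited and own totals as divisor each gave 0 other AP-1 subunits and 2 other immediate early genes. Without the variance trend these were 0 and 2, with 1 heat shock gene. A mean of at least 1 gave 2 other AP-1 subunits and 1 upstream factor, and voom 1 of the 10 genes and 1 upstream factor. The labels do not state whether the replicate numbers follow the pairs of littermates. Calls lost under the block therefore cannot be read as weaker effects, nor set aside. Fewer libraries leave fewer residual degrees of freedom, but the cause of the other shifts was not tested.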
